A study of Mus musculus with 4 samples.

Results

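The genes for the protein components of the cytosolic ribosome were examined in ChIP-seq peaks of the transcription factor MIZ-1. The 80 genes were taken from the 21951 protein-coding genes of the GENCODE basic annotation of mm10. They are those with Rpl or Rps symbols of the cytosolic ribosome, without Rpl22, Rpl22l1 and the S6 kinase genes. The rule used names alone and no measured value, but it was set with earlier results of these data known. The study cites earlier work of its authors in which MIZ-1 regulated Rpl22 in maturing B cells. That gene is not counted here. Of the 80 genes, 49 encode proteins of the large subunit and 31 of the small subunit, and processed pseudogenes were left out.

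The ribosome is built in the nucleolus from ribosomal RNA and ribosomal proteins, which must be made in matched amounts. Ribosomal protein genes are among the most strongly transcribed genes of a cell, have CpG-rich promoters, and their mRNAs carry an oligopyrimidine tract at the 5′ end through which translation follows growth signals. MYC, a binding partner of MIZ-1, raises ribosome production in activated B cells. MIZ-1 (Zbtb17) binds DNA through zinc fingers and contacts itself and other proteins through its POZ domain.

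Chromatin came from B220+ splenocytes of MIZ-1WT mice and of MIZ-1DPOZ mice (MB1-Cre crossed to Miz-1 floxPOZ), all young adults on a C57BL/6 background. In the MIZ-1DPOZ mice, Cre acts in the B lineage, and the cells make a truncated MIZ-1 that lacks the POZ domain and keeps its zinc fingers. The study describes fewer follicular and relatively more marginal zone B cells in these spleens, so genotype and B cell composition cannot be told apart. Both ChIP libraries were made with the anti-MIZ-1 antibody H-190. Each genotype had 1 ChIP library and 1 input library, so no difference between genotypes has a replicate and no test was made. The authors called peaks once per genotype against its input.

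There were 34209 peaks for MIZ-1WT and 78357 for MIZ-1DPOZ, and the depth recovered from the peak scores was 1.34 times higher for MIZ-1DPOZ. The pileup, the number of DNA fragments over a peak's summit, had a median of 9 over all MIZ-1WT peaks and of 12 over all MIZ-1DPOZ peaks. The fold enrichment is the pileup over the local background, each with 1 added. A gene was counted as having a promoter peak when a peak touched the window from 2000 bp before to 1000 bp after one of its transcript starts. The intervals below cover counting error only.

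The sequences under 3 of the promoter peaks are shown first. They were chosen because they lie past the transcript start in intron sequence, and they need not be typical of the family. Each runs 101 bases around the summit, 5′ to 3′ on the strand of its gene, with every CpG in capitals. The sequence for Rpl32 is the summit of the highest peak found in the MIZ-1WT list alone (chr6:115808534-115808634, minus strand, mm10). Those for Rps6 (chr4:86857124-86857224, minus strand, MIZ-1WT list) and Rps15a (chr7:118115899-118115999, minus strand, MIZ-1DPOZ list) come from a gene with an oligopyrimidine start in each list.
Rpl32: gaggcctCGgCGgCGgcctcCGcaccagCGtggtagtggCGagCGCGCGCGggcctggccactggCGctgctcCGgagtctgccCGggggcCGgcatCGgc
Rps6: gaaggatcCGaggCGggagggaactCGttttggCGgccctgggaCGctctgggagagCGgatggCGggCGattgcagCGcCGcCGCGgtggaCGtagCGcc
Rps15a: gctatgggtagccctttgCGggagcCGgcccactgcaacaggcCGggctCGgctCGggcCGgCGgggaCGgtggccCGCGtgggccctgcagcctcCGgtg

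These windows held 15, 14 and 11 CpG, with GC contents of 80.2%, 71.3% and 77.2%. None of the 3 overlapped an exon of its gene. Over 201 bp around the same summits, the GC contents were 79.1%, 72.6% and 74.1%. Over the highest promoter peak of each ribosomal protein gene, the median GC content of 201 bp around the summit was 71.6% in either list. For all protein-coding genes with a promoter peak, it was 73.1% for MIZ-1WT and 71.1% for MIZ-1DPOZ. No summit of these promoter peaks lay in mostly repeat-masked sequence.

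MIZ-1 peaks were less frequent at ribosomal protein promoters than at promoters in general. In the MIZ-1WT list, 15 of the 80 genes had a promoter peak (18.8%, 95% Wilson interval 11.7 to 28.7), against 30.9% of all protein-coding genes. For MIZ-1DPOZ, 26 of the 80 did (32.5%, 23.2 to 43.4), against 48.7%. Both intervals end below the share of all genes. A peak in both lists was found at 7 of the 80 genes (8.75%), against 26.6% of all genes. In 46 of the 80 (57.5%, interval 46.6 to 67.7), neither list had a promoter peak, against 47.1% of all genes, which that interval includes. These genes are not independent of each other, and the shares are given as a description.

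The difference was larger beside genes with like promoters. A start was called CpG-rich when the 501 bp around it had at least 50% GC and an observed to expected CpG ratio of at least 0.6, and 75 of the 80 genes had one. Among these 75, 15 (20%) had a MIZ-1WT promoter peak and 24 (32%) a MIZ-1DPOZ one. Among all 11789 genes with a CpG-rich start, the shares were 49.9% and 71.3%. Both lists had a peak at 7 of the 75 genes (9.33%), against 44% of all genes with such a start. The CpG-rich background was chosen after the shares over all genes had been seen.

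The windows and their copies were measured too. The ribosomal protein genes had a median of 2 transcript starts, as did all genes. In their windows, which covered 0.264 Mb, there were 56.9 MIZ-1WT and 121 MIZ-1DPOZ peaks per Mb, against 91.6 and 159 for all genes. Ribosomal protein genes have many processed pseudogenes, so the copies of their start sequence were counted. Of 50-base sequences taken within 500 bp of their starts, a median of 97.8% occurred once in the genome, against 100% for all genes. At least 90% were single-copy in 74 of the 80 (92.5%), against 87.8% of all genes.

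**Figure D1:**
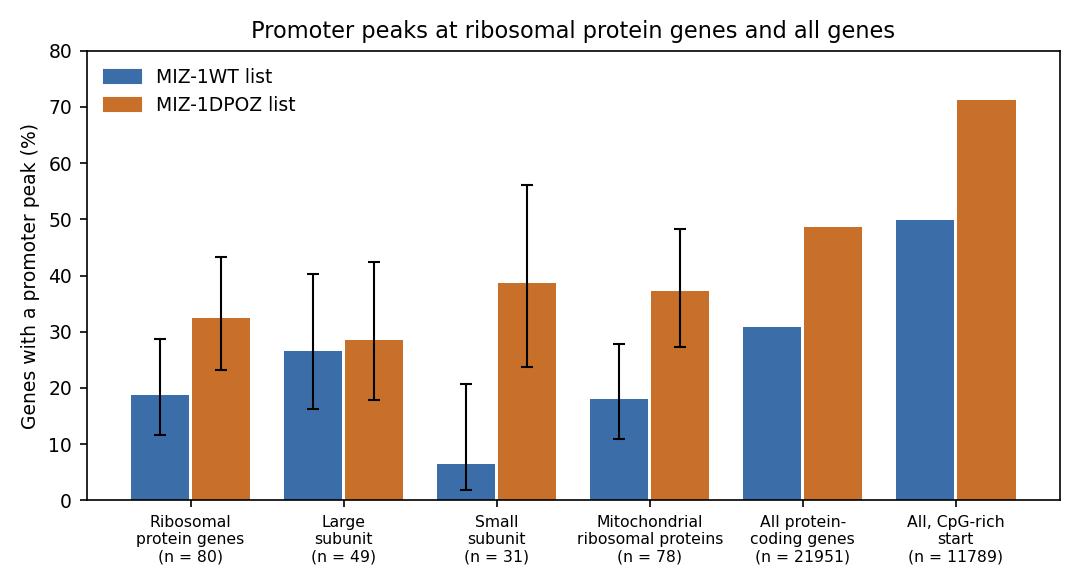
Share of genes with a promoter peak (y axis, percent) in the MIZ-1WT list (blue) and the MIZ-1DPOZ list (orange), for the 80 ribosomal protein genes, their large and small subunit members, 78 mitochondrial ribosomal protein genes, all protein-coding genes and those with a CpG-rich start. Error bars are 95% Wilson intervals, not drawn for all genes and those with a CpG-rich start. The ribosomal protein genes (18.8% and 32.5%) lie below all protein-coding genes (30.9% and 48.7%) in both lists.

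The subunits had unlike numbers in the MIZ-1WT list. A MIZ-1WT promoter peak was found at 13 of the 49 large subunit genes (26.5%, interval 16.2 to 40.3) and at 2 of the 31 small subunit genes (6.45%, interval 1.79 to 20.7), among them Rps6. In the MIZ-1DPOZ list, the counts were 14 of 49 (28.6%) and 12 of 31 (38.7%). All 7 genes with a peak in both lists encode large subunit proteins. No small subunit gene had a peak in both lists (0 of 31). The 3 counts that a 0 allows would give a share of 9.68%, and the upper Wilson limit was 11.0%. These limits treat the genes as independent draws, which they are not, and all 31 genes were counted. They do not cover the low depth or the lack of replicate libraries. The intervals of the subunits overlap in each list.

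The 7 genes found in both lists were Rpl9, Rpl13, Rpl17, Rpl19, Rpl31, Rpl36al and Rpl7a. Rpl17, a protein that lines the tunnel through which the nascent chain leaves, had the highest MIZ-1WT pileup of the family, 15 fragments and a fold enrichment of 8.41. Its MIZ-1DPOZ peak had 10 fragments and 4.68-fold enrichment. The 2 Rpl17 summits lay in introns, 227 and 409 bp after the start, and the latter was nearest to the start of the intronic small nucleolar RNA gene Snord58b. Rpl9, a structural protein of the large subunit, had 12 fragments (6.99-fold) in the MIZ-1WT list, with the summit 4 bp after a start, and 9 fragments (4.26-fold) in the MIZ-1DPOZ list, 140 bp after one. In both genes the wild-type peak was the higher one, although its library was the shallower one.

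Rpl13 went the other way. Its peaks in the coding exon had 8 fragments (4.73-fold) for MIZ-1WT and 17 (7.39-fold) for MIZ-1DPOZ, 508 and 531 bp after the start. The sequence under the MIZ-1DPOZ summit occurs 3 times in the genome, and the peak (chr8:123102651-123103047) overlaps Snord68, a small nucleolar RNA gene in an intron of Rpl13. Among the 7 genes, Rpl13 had the largest rise in pileup from the MIZ-1WT to the MIZ-1DPOZ list.

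The other 4 shared genes had similar, low pileups in the lists. Rpl19, which forms a bridge between the subunits, had 8 fragments in either list, 106 and 209 bp after the start. Rpl31, a protein near the tunnel exit, had 8 and 9 fragments, 83 and 16 bp after a start. Rpl7a had 8 fragments in the MIZ-1WT list, 148 bp after the start, and 10 in the MIZ-1DPOZ list, 147 bp before it and 48 bp from the start of Med22. Rpl7a also had a lower MIZ-1DPOZ peak 172 bp after its start, which overlapped the MIZ-1WT one. Rpl36al, an expressed copy of Rpl36a, had 9 and 12 fragments, and both summits lay nearer to a start of Mgat2 than to its own.

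Scaled for depth, the ratio of MIZ-1DPOZ to MIZ-1WT pileup ran from 0.497 for Rpl17 (exact 95% binomial interval 0.200 to 1.18) to 1.58 for Rpl13 (0.648 to 4.24). Rpl9 had 0.559 (0.208 to 1.45), Rpl19 0.746 (0.244 to 2.28) and Rpl31 0.839 (0.287 to 2.50). Rpl7a had 0.932 (0.331 to 2.72) and Rpl36al 0.994 (0.385 to 2.67). The highest peaks of Rpl7a lay 295 bp apart and did not overlap, and its overlapping pair gave 0.746 (0.244 to 2.28). All 7 intervals include 1, so no difference in height was detectable at this depth. The median log2 ratio was −0.25 (range −1.01 to 0.66), with 6 of the 7 genes below 0. Over the 5848 protein-coding genes with a peak in both lists, the median was 0.11 (quartiles −0.20 and 0.41), and 2462 were below 0. The range of the 7 genes includes that median.

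**Figure D2:**
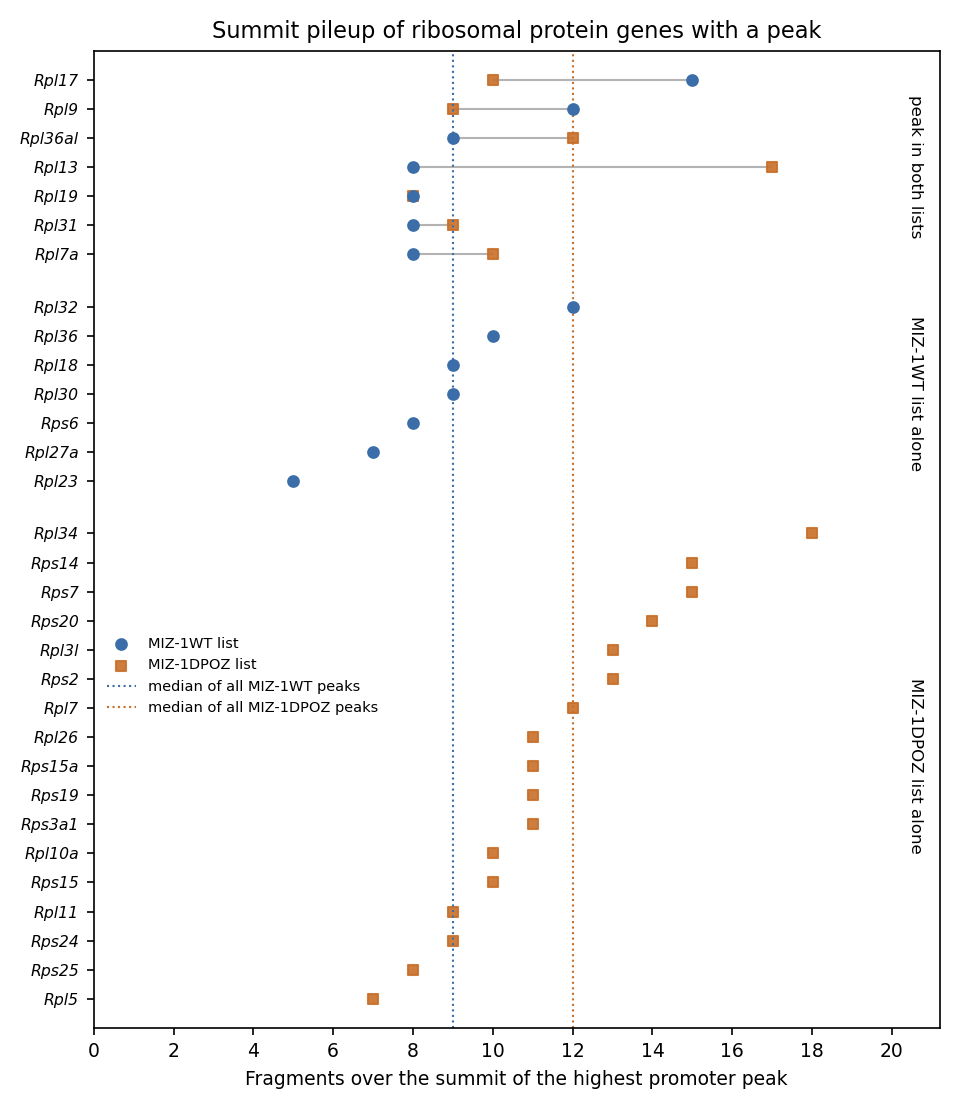
Summit pileup of the highest promoter peak (x axis, fragments) for 31 of the 34 ribosomal protein genes with a peak (rows), in the MIZ-1WT list (blue circles) and the MIZ-1DPOZ list (orange squares). Dotted lines are the medians of all peaks of each list, 9 and 12. Grey lines join the values of the 7 genes with a peak in both lists, and no point passes 18 fragments.

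The promoter peaks of ribosomal protein genes were low. Their median pileup was 8 fragments (range 5 to 15) for MIZ-1WT and 11 (7 to 18) for MIZ-1DPOZ. All protein-coding genes with a promoter peak had medians of 9 (quartiles 8 and 11) and 13 (quartiles 11 and 15). The medians of the family thus equalled the lower quartiles of all genes. The highest peaks of all genes reached 296 and 346 fragments, but they come from 6777 and 10684 genes. The median of all peaks of their own list (9 and 12) was passed by 4 of the 15 MIZ-1WT genes (Rpl17, Rpl9, Rpl32 and Rpl36) and 7 of the 26 MIZ-1DPOZ genes. A pileup equal to the median did not count as passing. The share of all protein-coding genes that passed is not given, so these counts have no background. The median fold enrichment was 4.84 for MIZ-1WT and 5.06 for MIZ-1DPOZ, against 5.26 and 5.48 for all genes.

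With a stricter cutoff, −log10 q at or above 5, 3 of the 80 genes kept a MIZ-1WT promoter peak, against 9.77% of all genes. These were Rpl17 (−log10 q 10.2), Rpl9 (7.06) and Rpl32 (6.21). In the MIZ-1DPOZ list 14 of the 80 did, against 33.3%, and no gene did in both lists. With the MIZ-1DPOZ list shortened to the length of the MIZ-1WT list, 7 of the 80 genes had a MIZ-1DPOZ promoter peak, against 25.3% of all genes. Of these 7 (Rpl13, Rpl34, Rpl3l, Rps14, Rps2, Rps20 and Rps7), Rpl13 was the one that also had a MIZ-1WT peak. With equal numbers of peaks, 15 ribosomal protein genes had a MIZ-1WT promoter peak and 7 a MIZ-1DPOZ one, and the shares of all genes fell in the same order (30.9% and 25.3%). The shares of all genes with a peak in both lists are not given for these settings.

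A peak in the MIZ-1WT list alone was found at 8 of the 80 genes (10%), against 4.23% of all genes. Rpl32, a large subunit protein, was the highest of these with 12 fragments (6.39-fold), 163 bp after the start in an intron. Rpl36 followed with 10 fragments (5.36-fold), 54 bp after the start. Rpl18 had 9 fragments (4.98-fold) and Rpl30 also 9 (5.38-fold), 47 and 106 bp after a start. None of these 4 genes had a peak in the deeper MIZ-1DPOZ library.

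Rps6, the substrate of the S6 kinases that follow growth signals, had 8 fragments (4.84-fold), 238 bp after the start in an intron. Rpl27a had 7 fragments (4.30-fold), 59 bp before the start. The lowest peak of the family was that of Rpl23, whose product is known to hold the MIZ-1 coactivator nucleophosmin in the nucleolus. It had 5 fragments (3.23-fold, −log10 q 1.12), 418 bp after the start and nearest to the start of Snora21, a small nucleolar RNA gene. These 3 genes were below the median of all MIZ-1WT peaks.

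A peak in the MIZ-1DPOZ list alone was found at 19 of the 80 genes (23.8%), against 22% of all genes, a share near the background. Rpl34, a large subunit protein, had the highest pileup of the family, 18 fragments (8.09-fold, −log10 q 12.1), at chr3:130730020-130730266 in its 5′ UTR, 177 bp after a start. Rps7, a small subunit protein that can bind MDM2, had 15 fragments (6.81-fold), 442 bp after a start in an intron. Rps20, a protein of the head of the small subunit, had 14 fragments (6.39-fold), with the summit 41 bp before its start. These 3 genes had no MIZ-1WT peak.

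Several of the other peaks of this group need a qualifier of place. Rps14, a gene lost in a myelodysplastic syndrome, had 15 fragments (5.86-fold), but 769 bp after a start far upstream of its main one and 210 bp from a start of Ndst1. Rps2, at the mRNA entry of the small subunit, had 13 fragments (5.96-fold) over a coding exon whose sequence occurs 6 times in the genome. Rpl3l, the striated muscle paralog of Rpl3, also had 13 fragments, 601 bp after a start in a coding exon, and its start is not CpG-rich. The 12 fragments of Rpl7 lay 1280 bp before its start and 168 bp from a start of Rdh10. Rpl7 also had a MIZ-1DPOZ peak of 11 fragments (4.69-fold), 549 bp before its start.

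Rps19, the gene most often mutated in Diamond-Blackfan anaemia, had 11 fragments (5.11-fold), 182 bp after a start in an intron. Rpl26, Rps3a1 and Rps15a had the same height. Rpl11 had 9 fragments (4.26-fold) and Rpl5 had 7 (3.41-fold). Both proteins form a particle with the small ribosomal RNA of the large subunit that can restrain MDM2. The Rpl11 summit lay 747 bp after the start in an exon sequence found 3 times in the genome, and that of Rpl5 lay 213 bp after the start in an intron. Rpl10a, Rps15, Rps24 and Rps25 had between 8 and 10 fragments.

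The genes with a peak in one list were often not those of the other. Of the 15 genes with a MIZ-1WT promoter peak, 7 (46.7%, interval 24.8 to 69.9) also had a MIZ-1DPOZ one, against 86.3% of all protein-coding genes with a MIZ-1WT promoter peak. Genes of like pileup, a comparison added after this share was seen, were shared more often. Among the 1321 protein-coding genes whose MIZ-1WT pileup was 8, the median of the family, 84.9% were also in the MIZ-1DPOZ list. Among all genes with a CpG-rich start, the share was 88.2%.

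In the other direction, 7 of the 26 genes with a MIZ-1DPOZ promoter peak (26.9%, interval 13.7 to 46.1) also had a MIZ-1WT one, against 54.7% of all protein-coding genes. At a MIZ-1DPOZ pileup of 11, the median of the family, the share of all genes was 46.8%. The mitochondrial ribosomal protein genes, which encode the separate ribosome of that organelle, had shares of 50% (7 of 14) and 24.1% (7 of 29). The cause of the low sharing was not tested.

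**Figure D3:**
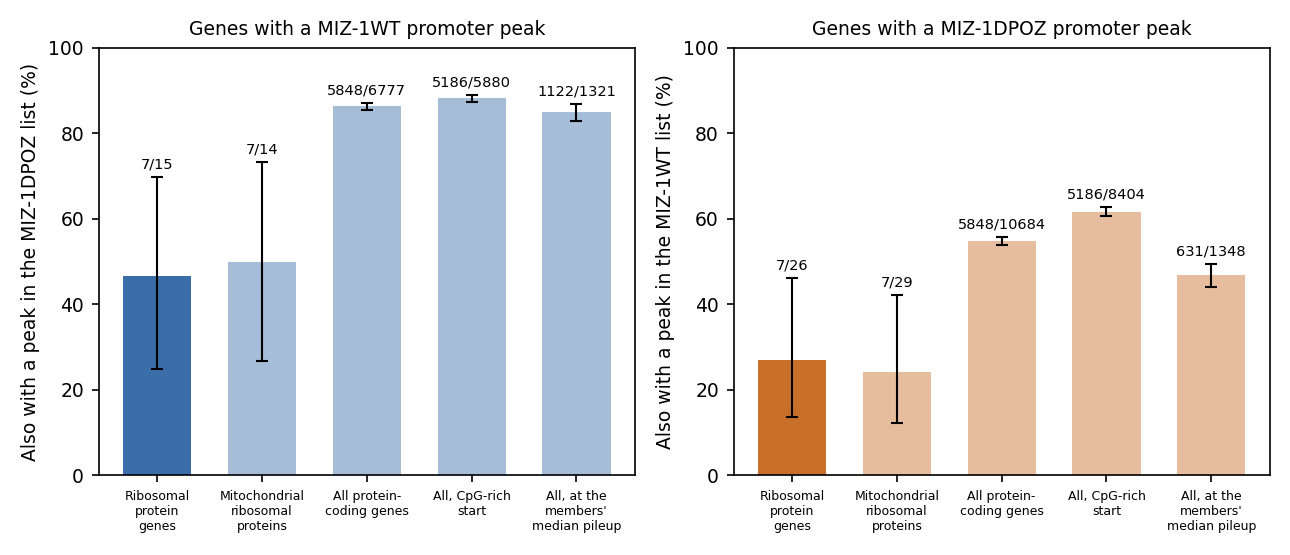
Left, of the genes with a MIZ-1WT promoter peak, the share with a MIZ-1DPOZ one (y axis, percent). Right, of the genes with a MIZ-1DPOZ promoter peak, the share with a MIZ-1WT one. Bars stand for the ribosomal protein genes, mitochondrial ribosomal protein genes, all protein-coding genes, those with a CpG-rich start and those at the median pileup of the family, with 95% Wilson intervals and counts. Ribosomal protein genes (46.7% and 26.9%) lie below all protein-coding genes (86.3% and 54.7%) in either direction.

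Where a peak was called, it mostly lay inside the gene. The summit of the highest promoter peak lay after the nearest start in 13 of the 15 MIZ-1WT genes (86.7%) and in 22 of the 26 MIZ-1DPOZ genes (84.6%). Over all protein-coding genes, it did in 63.9% and 67.7%. The median position was 106 bp after the start for MIZ-1WT and 185 bp for MIZ-1DPOZ, against 86 and 124 bp for all genes. Within 250 bp of the start were 12 of the 15 (80%) and 16 of the 26 (61.5%), against 58.3% and 54.8%.

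By annotation, 8 MIZ-1WT summits fell in introns, 3 in 5′ UTRs, 1 in a coding exon, 1 in another exon and 2 upstream. The MIZ-1DPOZ summits fell in introns for 11 genes, in coding exons for 5, in 5′ UTRs for 4, in other exons for 2 and upstream for 4. Ribosomal protein introns hold many small nucleolar RNA genes. Measured from the edges of the peak, 12 of the 15 MIZ-1WT peaks covered or lay nearest to a start of the ribosomal protein gene itself. Among the others, 2 had a summit nearest to the start of a small nucleolar RNA gene (Rpl13 and Rpl23). For MIZ-1DPOZ these counts were 20 of 26 and 3 (among them Rpl13 and Rpl17). The 20 include Rpl36al, whose peak covered its own start although the summit lay nearer to a start of Mgat2. Summits in sequence with more than 1 copy numbered 0 of 15 for MIZ-1WT and 3 of 26 for MIZ-1DPOZ (Rpl11, Rpl13 and Rps2). Over all protein-coding genes with a promoter peak, they numbered 285 of 6777 and 641 of 10684. The counts by annotation and by nearest start are not given for all genes, so they have no background.

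**Figure D4:**
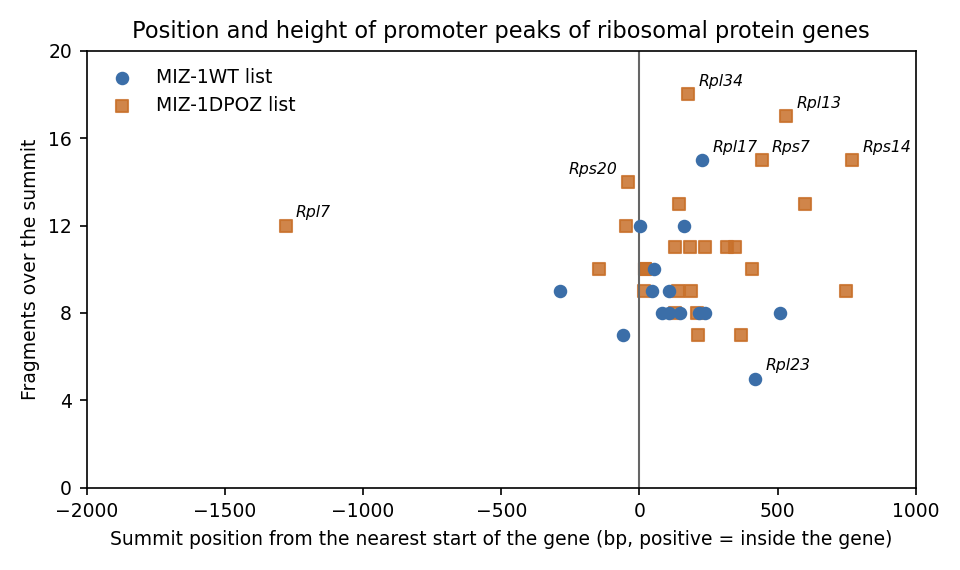
Position of the summit of the highest promoter peak (x axis, bp from the nearest start of the gene, positive inside the gene) against its pileup (y axis, fragments), for 15 genes of the MIZ-1WT list (blue circles) and 26 of the MIZ-1DPOZ list (orange squares). The vertical line marks the start. In either list most points (13 of 15 and 22 of 26) lie to the right of the line.

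Beyond the promoter window, gene bodies held 2 MIZ-1WT and 3 MIZ-1DPOZ peaks. Gene body counts for all genes are not given, so these counts have no background and are a description. The MIZ-1WT peaks were in introns of Rpl35a (14 fragments, 1114 bp after the start, in sequence 70.1% repeat-masked) and Rps14 (8 fragments). The highest MIZ-1DPOZ one had 19 fragments (7.87-fold) and lay in the annotated span of Rpl3, a protein near the catalytic centre. It was 7839 bp before the nearest start used for Rpl3 and 89 bp from a start of Syngr1. The others were in an intron of Rps14 (12 fragments) and in the 3′ UTR of Rps15 (9 fragments). The Rps14 peaks lay between its far upstream start and its main one.

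Of the 46 genes without a promoter peak, those of the large subunit included Rpl3, Rpl4, Rpl6, Rpl8, Rpl10, Rpl10l, Rpl12, Rpl13a, Rpl14, Rpl15, Rpl21, Rpl23a, Rpl24, Rpl27, Rpl28, Rpl29, Rpl35, Rpl35a, Rpl36a, Rpl37, Rpl37a, Rpl38, Rpl39, Rpl39l, Rpl41, Rplp0, Rplp1 and Rplp2. Rplp0, Rplp1 and Rplp2 form the stalk that recruits translation factors, and Rpl10 is added late and allows the subunits to join. The paralogs Rpl10l and Rpl39l are made mainly in testis.

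In the small subunit, the genes without a promoter peak included Rps3, Rps4x, Rps9, Rps10, Rps12, Rps13, Rps16, Rps18, Rps21, Rps23, Rps26, Rps27, Rps27a, Rps27l, Rps28 and Rps29. Rps3 shapes the mRNA entry channel, and Rps27a is made as a fusion with ubiquitin. Rps27l, a paralog induced by p53, had none either. For each, no peak passed the authors' calling at this depth, which does not show that MIZ-1 was absent.

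The median composition of the starts was ordered by class, but the classes overlapped. For example, Rpl17, with a peak in both lists, had 24.5 CpG around its starts, and Rplp1, without a peak, had 52. The medians below are a description, and the same values for all genes are not given. The 501 bp around the start held a median of 51 CpG in the 7 genes with a peak in both lists. It held 44 in those with a MIZ-1DPOZ peak alone, 42.8 in those with a MIZ-1WT peak alone and 36.5 in the 46 without a peak. The median GC contents in the same order were 62.8%, 61.0%, 60.6% and 58.7%.

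The letters of the starts were read from RefSeq windows of GRCm38.p6, which run from 250 bases before to 50 after an annotated start. They covered 60 of the 80 genes in 71 windows, beside 21263 windows of protein-coding genes. Exact matches on both strands were counted for 5 motifs that may overlap each other. An oligopyrimidine start was a C at the annotated start with C or T in each of the next 4 bases. The bases from 10 before to 20 after the start are printed below for genes with and without a peak, with the pyrimidine run from the start in capitals.
Rps6 (MIZ-1WT peak, chr4:86857348-86857377, minus strand): gaagtcgggcCTCTTTTTCgtgacgcctcc
Rps15a (MIZ-1DPOZ peak, chr7:118116128-118116157, minus strand): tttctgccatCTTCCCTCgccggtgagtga
Rpl38 (no peak, chr11:114668570-114668599, plus strand): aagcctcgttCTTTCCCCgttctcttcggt
Rps18 (no peak, chr17:33955646-33955675, minus strand): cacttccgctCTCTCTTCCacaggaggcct
Rpl9 (peak in both lists, chr5:65391412-65391441, minus strand): gggccctgacggattacaagaacgtgatga

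The pyrimidine run was 9 bases long in Rps6 and Rps18 and 8 in Rps15a and Rpl38, and the annotated start of Rpl9 had none. An oligopyrimidine start was found in 18.3% of the ribosomal protein windows and in 2.21% of all windows. By gene, it was found in 2 of the 24 covered genes with a promoter peak (Rps6 and Rps15a) and in 11 of the 36 without one. The counts depend on where the annotation places each start.

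The ETS motif CCGGAAG was in 36.6% of the ribosomal protein windows (11.6% of all), and in 11 of the 24 genes with a peak and 14 of the 36 without. ATGGCG, the core of the YY1 motif, was in 29.6% (10.9% of all), and in 5 of 24 and 13 of 36 genes. The E-box CACGTG, to which MYC with MAX can bind, was in 11.3% (7.84% of all), and in 4 of 24 and 2 of 36 genes. The GC box GGGCGG was in 60.6% (46.2% of all) and the TATA box TATAAA in 7.04% (12.6% of all). These matches are letters in a window and no evidence of a bound factor.

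**Figure D5:**
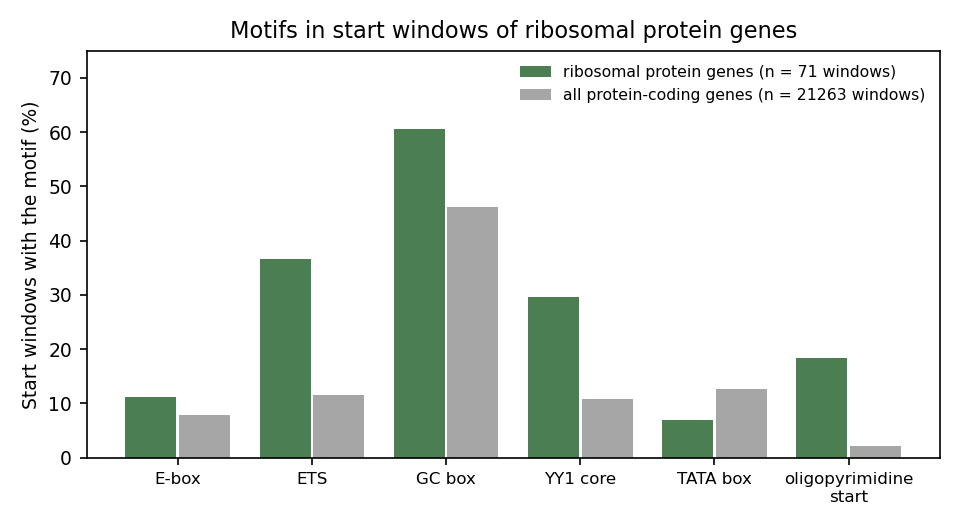
Share of RefSeq start windows that hold each motif (y axis, percent), for the 71 windows of ribosomal protein genes (green) and 21263 windows of protein-coding genes (grey). The ETS motif (36.6% against 11.6%), the YY1 core (29.6% against 10.9%) and the oligopyrimidine start (18.3% against 2.21%) stand higher in the ribosomal protein windows.

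The other genes of the ribosome pathway were counted the same way. Of 4 ribosome components with other symbols, Rpsa, a small subunit protein, had a MIZ-1WT promoter peak (8 fragments, 18 bp after the start), and Fau and Rack1 had none in either list. Of 11 other genes whose mRNAs carry an oligopyrimidine tract, 5 had a MIZ-1WT promoter peak (45.5%, interval 21.3 to 72.0) and 6 a MIZ-1DPOZ one (54.5%, interval 28.0 to 78.7). These intervals include the shares of all genes. The 5 with a MIZ-1WT peak were all in the MIZ-1DPOZ list too, where 86.3% of all such genes were. They were the elongation factor subunit Eef1d (7 and 14 fragments), the poly(A) binding protein Pabpc1 (8 and 15), Tpt1 (8 and 10), the histone chaperone Nap1l1 (7 and 18) and Naca (12 and 13). Eef1a1, Eef1b2, Eef2, Hnrnpa1 and Npm1, which encodes nucleophosmin, had none.

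Of 30 genes for ribosomal RNA synthesis and ribosome assembly, 7 (23.3%) had a MIZ-1WT promoter peak and 12 (40%) a MIZ-1DPOZ one. Both lists had a peak at 6 (20%), against 26.6% of all protein-coding genes. The intervals of the first 2 shares, 11.8 to 40.9 and 24.6 to 57.7, include those of all protein-coding genes (30.9% and 48.7%). Among them were the RNA polymerase I factors Ubtf (14 and 13 fragments) and Rrn3 (12 fragments in the MIZ-1WT list alone), the nucleolar protein Ncl (7 and 12) and the assembly factor Wdr12 (10 and 20). Of 78 mitochondrial ribosomal protein genes, 14 (17.9%) had a MIZ-1WT promoter peak and 29 (37.2%) a MIZ-1DPOZ one, 7 of them in both lists. Their intervals, 11.0 to 27.9 and 27.3 to 48.3, overlap those of the cytosolic family.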

How the data were processed

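MIZ-1 ChIP-seq of B220+ splenocytes was deposited as 1 MACS2 peak list per genotype. The authors trimmed paired-end reads, mapped them to mm10 and called peaks against the input (bwa per the methods, Bowtie2 2.2.6 per the submitters' processing notes, and MACS2, 2.1.0 in those notes and a later release in the methods). With 1 library of each kind per genotype, there were no replicates to pool. For each peak, the deposited fold enrichment at the summit is a ratio over local background, and the authors also give the −log10 p-value (Poisson) and −log10 q-value. The calling threshold and the handling of duplicates and multiply mapped reads are not given in the sources used here. Reads and inputs were not analysed here.

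The 80 genes and all other lists were chosen with earlier results of these data known. Starts came from GENCODE vM21 basic on GRCm38, the assembly of mm10. Pileup and background were solved from the fold and −log10 p under MACS2's formulas, which gave whole pileups within 0.01 for 100% of the peaks. The solver was tested on simulated data. Depth was taken from the most frequent background divided by the smallest peak width (0.860 over 148 bp and 1.35 over 173 bp). The highest promoter peak stood for a gene. Copies are the median genomic count of 5 sequences of 50 bases at the summit. Shares carry 95% Wilson intervals and pileup ratios exact binomial intervals, the depth held fixed. Genes were named by pileup, by list and by role, and others to account for the family, and some genes are not reported here. Alternatives were stricter cutoffs, lists of equal length, other windows and overlaps, and single-copy summits. Python 3.11.15, numpy 2.4.6, pandas 2.3.3, scipy 1.17.1 and matplotlib 3.10.9 were used.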

Additional observations from a re-analysis of the deposited data

How the results depend on the processing

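With 1 ChIP library per genotype, no value has a replicate error, and depth limits what can be seen at pileups near 8 fragments. With the −log10 q at or above 5, the genes with a promoter peak numbered 3 in the MIZ-1WT list, 14 in the MIZ-1DPOZ list and 0 in both (3 in the MIZ-1WT list alone), no promoter peaks overlapped (0 genes), and 1 MIZ-1WT gene body peak was left. With no gene in both lists, that cutoff gave no pileup ratio. At a fold enrichment of at least 5, the counts were 6, 14 and 1, with 5 in the MIZ-1WT list alone and 1 gene body peak. With lists of equal length, 7 genes had a MIZ-1DPOZ promoter peak, 1 was in both lists, 14 were in the MIZ-1WT list alone and 6 in the MIZ-1DPOZ list alone. Counting a peak only for its nearest start left 4 genes in both lists. Shares of all genes were given above only for each list at the −log10 q cutoff and for lists of equal length. The other counts in this section have no background, so whether the family fell faster than all genes cannot be told. Of the 7 genes with overlapping promoter peaks, 2 passed a reciprocal overlap of 50% and 3 had summits within 100 bp. The other 43 values computed stayed within 1.5 times the main count or on the same side of 0, and the median log2 ratio ran from −0.48 to −0.25.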
